A study of Mus musculus with 2 samples.

Results

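Fibroblast growth factor (FGF) signalling through the kinase ERK is represented here by 8 genes that follow the signal from its ligand to its feedback. They are Fgf4 (the ligand), Fgfr1 and Fgfr2 (receptors), Grb2 and Sos1 (the adaptor and the exchange factor that load RAS with GTP), Map2k1 (the kinase MEK1), Mapk3 (the kinase ERK1) and Dusp6 (a phosphatase that switches ERK off). They were chosen by name, and all 8 have a row among the 12836 genes of the deposited table. RNA came from morulae of ICR mice, the compacted embryos that precede the blastocyst, that had received injections of double-stranded RNA. It was directed at Nat10 in the dsNat10 group and at GFP, which mice lack, in the dsGFP control group. The design text speaks of 50 morulae, and the sources used here do not say whether each pool held that many. Each group is 1 library, so no difference below has a replicate check and no p-value is given. The series concerns Nat10, the enzyme that writes N4-acetylcytidine on RNA, and the step from morula to blastocyst.

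FGF4 is the main FGF of the early mouse embryo. It binds FGF receptors with the help of heparan sulphate, and the receptors recruit FRS2, GRB2 and SOS1, which activate RAS and then the kinases RAF, MEK and ERK. In the inner cell mass, FGF4 from epiblast precursors steers neighbouring cells towards primitive endoderm, and high ERK activity is linked to lower NANOG. DUSP6, the sprouty proteins and ETS-family factors such as ETV4 and ETV5 are transcribed in response to ERK and are widely used as readouts of it.

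The libraries held 28303119 (dsNat10) and 29139232 (dsGFP) estimated reads. The target Nat10 had 37 reads in dsNat10 and 886 in dsGFP. Levels within a library are given as TPM (transcripts per 1000000, which corrects for gene length), and ratios between libraries as CPM (reads per 1000000, TMM-scaled) with an exact (Clopper-Pearson) 95% interval. Such intervals cover counting error only, since reads copied by PCR and lacking molecular identifiers are not separate molecules. Calls of higher or lower follow a size rule: a mean CPM of 5 or more, a log2 ratio of CPM plus 1 of at least 1 in size, and an interval that excludes equality. A gene under 5 CPM in 1 library passes the filter only through the other, which fixes the direction of its ratio. Beside genes at 0, this holds for the calls of Fgf1, Fgf3, Hs2st1, Gab2, Plcg1, Crk, Rasa1, Rras2, Shoc2, Spry4, Il17rd, Fosl1, Junb and Mknk1 below. All 10 markers of the preimplantation embryo that were looked for passed the filter on the mean, with a summed level of 19182 TPM in dsNat10 and 18248 in dsGFP. Most of that sum was Dppa5a, and the 9 others summed to 3332 and 4011 TPM. By the size rule 3 of the 10 (Nanog, Krt8 and Tead4, named after their values were seen) were lower and 0 higher, with a median log2 ratio of -0.46. Over all genes that passed this filter 15.3% were lower and 15.2% higher. Of 8 oocyte markers, 3 have a row, with Zp3 at 29.3 TPM against 4.60, H1f8 at 15.6 against 0 and Gdf9 at 0.04 against 1.92. Their summed level was 44.9 TPM in dsNat10 and 6.52 in dsGFP. The markers of cumulus cells summed to 23.9 and 27.1 TPM (2 of 9 with a row) and those of blood to 75.2 and 82.6 TPM (4 of 6). The 1 fibroblast marker with a row of 5, Col1a1, had 0 and 9 reads. The part of RNA left from the oocyte in the results below was not tested, and in pooled embryos fewer cells of a type and less RNA per cell cannot be told apart.

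Promoter stretches are shown for the ligand, the most abundant kinase of the set and the feedback phosphatase, which differ in base composition and in the motifs they hold. Each runs 5′ to 3′ on the gene's strand over 220 bases, from 250 to 31 bases before the RefSeq start (GRCm38.p6), with motif matches in capitals. The motifs searched on both strands were CCGGAA (the core bound by ETS factors), GGGCGG (the GC box bound by SP and KLF factors), TGACTCA (bound by AP-1) and the TATA box, written TATAAA. They do not overlap in these stretches.
Fgf4 (chr7:144861136-144861355, plus strand): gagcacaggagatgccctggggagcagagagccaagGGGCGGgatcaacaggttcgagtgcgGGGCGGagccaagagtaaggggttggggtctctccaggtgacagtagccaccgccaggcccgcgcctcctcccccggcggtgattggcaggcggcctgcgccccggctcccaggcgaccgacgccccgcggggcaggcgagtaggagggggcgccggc
Map2k1 (chr9:64253636-64253855, minus strand): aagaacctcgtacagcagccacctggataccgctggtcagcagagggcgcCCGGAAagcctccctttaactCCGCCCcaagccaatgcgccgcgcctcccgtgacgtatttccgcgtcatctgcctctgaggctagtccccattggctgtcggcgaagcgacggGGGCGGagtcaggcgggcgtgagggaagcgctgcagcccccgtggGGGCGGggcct
Dusp6 (chr10:99262981-99263200, plus strand): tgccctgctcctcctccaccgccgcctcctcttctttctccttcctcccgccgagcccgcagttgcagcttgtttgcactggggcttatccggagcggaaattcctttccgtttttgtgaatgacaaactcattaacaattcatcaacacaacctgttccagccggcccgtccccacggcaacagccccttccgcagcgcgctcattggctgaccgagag

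Fgf4 holds 2 GC boxes and no CCGGAA in 73.2% G and C. Map2k1 holds 3 GC boxes, 1 of them on the other strand (printed as CCGCCC), and 1 CCGGAA at 67.7% G and C. Dusp6 holds none of the 4 motifs at 58.2% G and C. The shorter GGAA does occur in the Dusp6 stretch but was not searched for. Among all 32851 promoter stretches of this length, 28.5% hold a GC box, 9.47% a CCGGAA, 9.95% a TATA box and 4.01% an AP-1 site. The median share of G and C is 51.8%. Of the other members in the promoter table, Sos1 holds 1 CCGGAA, Fgfr2 none of the motifs, and of 2 stretches of Grb2 1 holds a TATA box. Both Grb2 stretches (between 115699565 and 115700178, minus strand) lie inside the gene, which runs to 115708597, and so do not precede its outermost start. A match describes these letters and is not a site of binding. Promoters were matched for 6 of the 8 members, not for Fgfr1 and Mapk3.

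By the size rule 1 of the 8 genes, Mapk3, was higher in dsNat10 and 0 were lower. Across all 8738 genes that passed the filter on the mean, 30.5% were called in either direction, 15.2% higher and 15.3% lower. All 8 members passed that filter, Mapk3 by a small margin at a mean of 5.39 CPM and only through its reads in dsNat10. A gene at 0 in 1 library that passes this filter meets the size limit by construction, so the 1 call is a description and supports nothing about the set. The other 7 differed by less than the rule asks, although the counting interval of each excludes equality. Of the 8 log2 ratios, 5 were above 0 (Fgf4, Fgfr1, Map2k1, Mapk3 and Dusp6) and 3 below (Fgfr2, Grb2 and Sos1), with a median of 0.56 beside 0.01 over all genes tested.

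**Figure D1:**
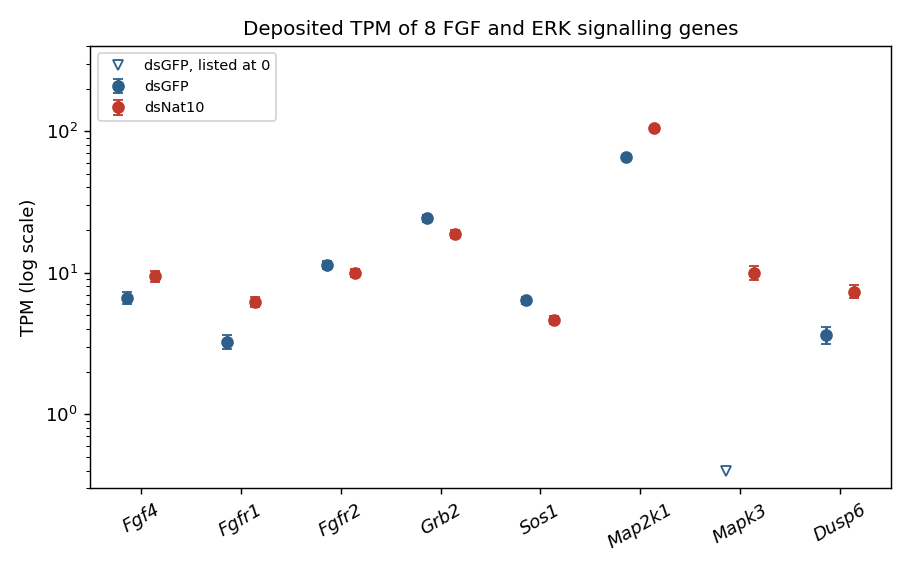
Deposited TPM (log axis) of the 8 genes in the dsGFP library (blue) and the dsNat10 library (red), with 95% Poisson counting intervals and an open triangle, drawn at an arbitrary height, for a gene listed at 0. Map2k1 is the most abundant in both libraries, at 65.7 and 104.5 TPM, and Mapk3 is at 0 in dsGFP and at 10.03 TPM in dsNat10.

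Fgf4, the ligand (Entrez gene 14175, GRCm38 chromosome 7, 144861386 to 144865245), was counted at 519 reads in the dsNat10 library and 385 in the dsGFP library. Its level was 9.42 TPM against 6.64, and in FPKM 6.44 against 4.64. The dsNat10 library was the higher by 1.36-fold in CPM (1.19 to 1.56), a log2 ratio of 0.42. Of the 22 mouse FGF ligands looked for, 7 have a row and 3 passed the filter on the mean. The other 2 were higher by the size rule, in a range of abundance where calls are common: among genes of 5 to 10 CPM, 63.1% were called and 30.7% called higher. With a pseudocount of 5 CPM only Fgf1 met the rule, since the log2 ratio of Fgf3 was then 0.79. Fgf1 had 354 reads against 66 (5.42-fold higher, 4.16 to 7.16), and Fgf3 254 against 87 (2.95-fold higher, 2.30 to 3.81). Per length, Fgf3 stood above Fgf4 in dsNat10 (13.0 against 9.42 TPM) and below it in dsGFP (4.24 against 6.64 TPM). The ligands Fgf9, Fgf10, Fgf13 and Fgf18 had 0 to 2.35 reads in dsNat10 and 3 to 74 in dsGFP, all under the filter. The 7 ligands together summed to 27.4 TPM in dsNat10 and 15.2 in dsGFP.

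The receptors Fgfr1 and Fgfr2 lay on opposite sides of equality. Fgfr1 (Entrez gene 14182, chromosome 8, 25518759 to 25575718) was counted at 584 reads in dsNat10 and 312 in dsGFP, at 6.23 and 3.26 TPM. It was 1.89-fold higher in dsNat10 (1.65 to 2.18), a log2 ratio of 0.86 that falls short of the size rule. Fgfr2 (Entrez gene 14183, chromosome 7, 130162451 to 130266808) had 941 reads against 1109, at 10.03 and 11.35 TPM, and was 1.17-fold lower (1.07 to 1.27). In both libraries Fgfr2 was the receptor with the higher level, by a wider margin in dsGFP.

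Fgfr4, a paralogue, was 1.92-fold higher in CPM (330 reads against 174, interval 1.59 to 2.32) and 1.62-fold higher in TPM, also short of the rule. The transcript length implied by its deposited values was 2959 bases in dsNat10 and 2408 in dsGFP. Fgfr3 had 0 reads in dsNat10 and 142 in dsGFP, at least 46.9-fold lower against a floor of 3 reads per library, but its mean of 2.46 CPM is under the filter. The 4 receptors summed to nearly the same level, 22.02 TPM in dsNat10 and 20.01 in dsGFP. Within that sum the share of Fgfr1 was 28.3% in dsNat10 and 16.3% in dsGFP, and that of Fgfr2 45.5% and 56.7%. Klb, a co-receptor for endocrine FGFs with a fractional count and so uncertain, was 1.52-fold higher (1.38 to 1.67). Thus 0 of the 4 receptor and co-receptor genes that passed the filter were called, beside 30.5% of all genes tested.

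Heparan sulphate, the sugar chain that FGFs need at the receptor, had 1 of 11 tested genes called, beside 30.5% of all genes tested. Hs2st1, a sulphotransferase, was 5.90-fold lower in CPM (4.60 to 7.65) and 10.2-fold lower in TPM, with a fractional count. Under the filter on the mean lay further genes of this list that were low in dsNat10, named after their values were seen: Ext1 had 1 read against 226, Sulf1 0 against 189, Extl2 0 against 76 and Ndst2 0 against 41. With no filter on the mean 6 genes of the list were lower and 0 higher. Over all 12836 genes this setting called 3252 lower and 1681 higher. Sdc4, the syndecan that is by far the most abundant of the list, had 449 TPM in dsNat10 and 402 in dsGFP. Gpc4, a glypican, was 1.66-fold lower (1.5 to 1.84), while the chain-modifying enzymes Ndst1 (fractional) and Glce were 1.58-fold and 1.60-fold higher, and none of these 3 met the rule.

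Grb2, the adaptor that carries SOS to the receptor complex (Entrez gene 14784, chromosome 11, 115644045 to 115708597), was counted at 855 reads in dsNat10 and 1163 in dsGFP. Its level was 18.8 TPM against 24.2, and it was 1.35-fold lower in dsNat10 (1.23 to 1.47). Sos1, the exchange factor (Entrez gene 20662, chromosome 17, 80393752 to 80480453), had 784 reads against 1133, at 4.64 and 6.37 TPM, and was 1.43-fold lower (1.30 to 1.57). The dsGFP library was thus the higher for both partners, and also for the paralogue Sos2, with 118 reads against 201 (1.69-fold lower, 1.34 to 2.13). Per length, Sos1 made up 80.4% of the summed Sos1 and Sos2 level in dsNat10 and 77.8% in dsGFP.

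Of 13 adaptors and exchange factors tested, Grb2, Sos1 and Sos2 included, 3 were higher, 3 lower and 7 within the size rule, beside 30.5% called over all genes. In deposited TPM or FPKM 1 was lower. Gab2, a docking protein, had 969 reads against 6 and was 163-fold higher (74.7 to 446). Plcg1, the phospholipase that FGF receptors bind, had 622 against 23 (27.3-fold higher, 18.0 to 43.4). Shc1, an adaptor that also recruits GRB2, had 214 against 2460 and was 11.4-fold lower (9.89 to 13.1). The remaining higher call, named after its value was seen, was the ubiquitin ligase Cbl (3.67-fold). Crk, with a fractional count, was 6.61-fold lower in CPM and 2.02-fold lower in TPM, where its log2 ratio of -0.73 misses the size limit. The transcript length implied by its deposited values was 1360 bases in dsNat10 and 4298 in dsGFP. Its relative Crkl, also named after its value was seen, was 2.51-fold lower in CPM and also missed the limit in TPM, at a log2 ratio of -0.97. Gab1, the most abundant of the list and also fractional, had 44.2 TPM in dsNat10 and 52.7 in dsGFP, and Frs2, the docking protein specific to FGF and neurotrophin receptors, named for its role, 14.5 and 12.4 TPM.

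Among RAS proteins and their regulators, 3 of 10 tested genes were higher and 1 lower, beside 15.2% and 15.3% of all genes tested. Mras had the highest level of the list, at 127 TPM in dsNat10 against 57.4 in dsGFP, and was 2.12-fold higher (2.0 to 2.24). Rras2 had 102 reads against 384 (3.73-fold lower, 2.99 to 4.68). Rasa1, which returns RAS to its inactive form, had 1054.6 estimated reads against 1.16, a fractional and so uncertain value. Nras and Hras, named for their role, were within the rule, at 40.1 against 44.2 TPM (Nras, fractional) and 39.6 against 22.2 TPM (Hras).

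**Figure D2:**
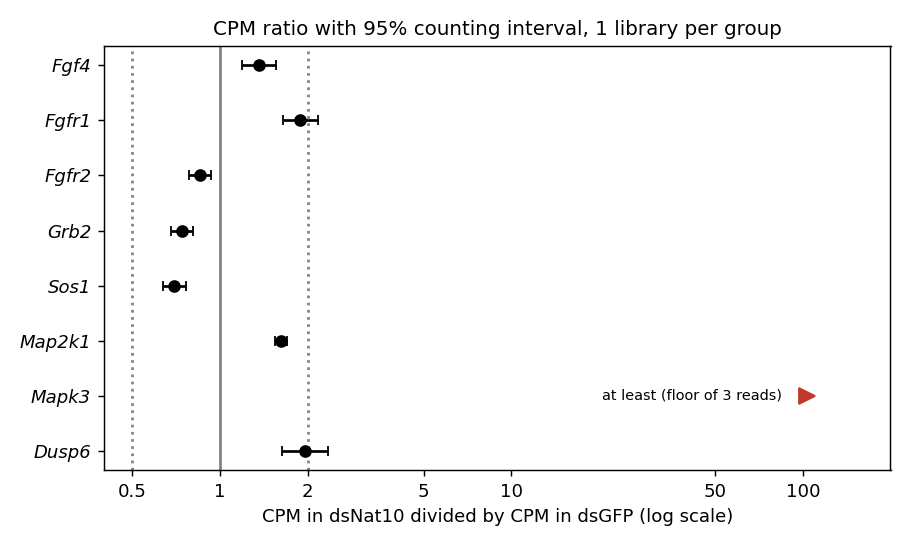
CPM in dsNat10 divided by CPM in dsGFP (log axis) for the 8 genes, with 95% counting intervals. Dotted lines mark ratios of 0.5 and 2. Mapk3 is drawn as a bound, at least 104-fold, and the 7 others lie between 0.699 (Sos1) and 1.96 (Dusp6).

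Map2k1, which encodes MEK1, the kinase that phosphorylates ERK (Entrez gene 26395, chromosome 9, 64185769 to 64253605), was the most abundant of the 8 genes in both libraries. It had 4917.11 estimated reads in dsNat10 and 3062.33 in dsGFP, at 104.5 and 65.7 TPM. It was 1.62-fold higher in dsNat10 (1.55 to 1.70), a log2 ratio of 0.69. Its counts are fractional, so its value is uncertain. In GENCODE M21, 7 of the 2387 windows of 50 bases along its longest coding transcript (0.293%) also occur in its paralogue Map2k2 and in no other gene. Map2k2, which encodes MEK2, had whole counts and a like ratio, with 7416 reads against 4674 (1.60-fold higher, 1.55 to 1.66). Map2k1 was 37.7% of the summed level of both MEK genes in dsNat10 and 38.8% in dsGFP, while that sum was 277 TPM against 169.

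Mapk3, which encodes ERK1 (Entrez gene 26417, chromosome 7, 126759626 to 126765816), was counted at 308 reads in dsNat10 and 0 in dsGFP, at 10.03 TPM and 0. Against a floor of 3 reads in dsGFP it was at least 104-fold higher in dsNat10. A value of 0 opposite a gene with this many reads was not rare. Of 918 genes whose dsNat10 reads were within 1.25-fold of 308, 67 (7.30%) had 0 reads in dsGFP. In the table as a whole 458 genes were at 0 in dsGFP and 2657 in dsNat10. Of the windows of 50 bases along the longest coding Mapk3 transcript, 1 of 1751 occurs in a transcript of another gene (Gm15546).

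**Figure D3:**
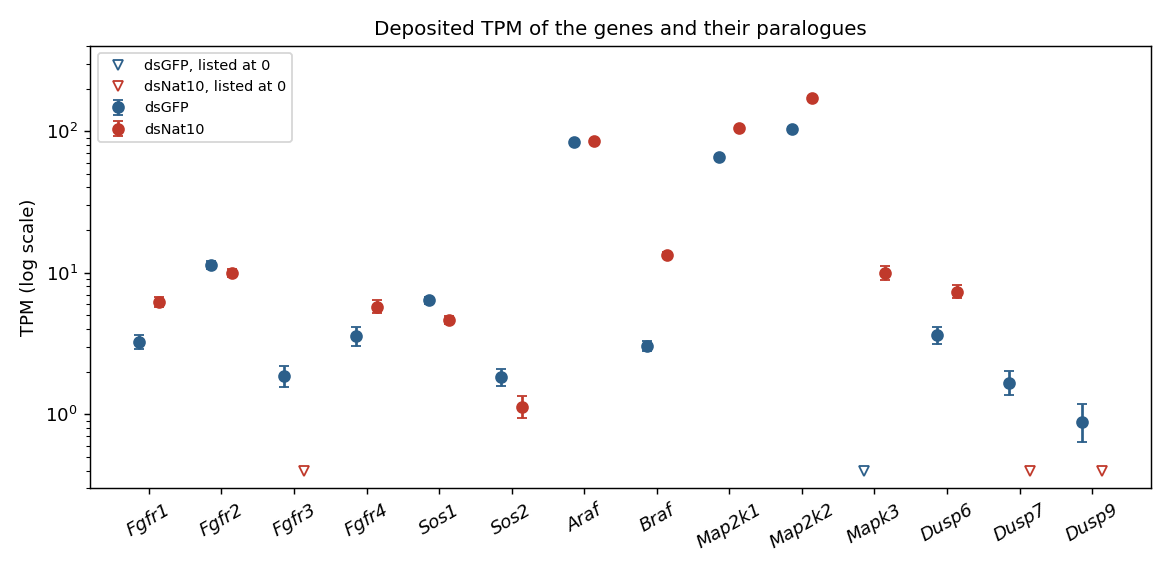
Deposited TPM (log axis) of the receptors, exchange factors, Araf, Braf, the MEK genes, Mapk3 and Dusp6 with its relatives, in dsGFP (blue) and dsNat10 (red), with 95% Poisson counting intervals and open triangles, at an arbitrary height, for genes listed at 0. Map2k1 and Map2k2 are higher in dsNat10 by similar ratios, 1.59 and 1.67 in the TPM drawn and 1.62 and 1.60 in CPM, and Mapk3 has reads in dsNat10 alone.

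In the list of RAF, MEK, ERK and their regulators, 11 of 14 tested genes, Map2k1 and Mapk3 included, had a log2 ratio above 0. By the size rule 3, Mapk3 included, were higher and 2 lower, beside 15.2% and 15.3% of all genes tested. The call of Mapk3, at 0 reads in dsGFP, follows by construction and supports nothing about the list. Braf had 2454 reads against 585 and was 4.24-fold higher (3.87 to 4.65), at 13.4 TPM against 3.03. Araf, named for its role, had 85.8 TPM against 83.5 and was above Braf in both libraries. The scaffold genes went apart. Shoc2, which helps to activate RAF, had 99 reads against 1023 (10.2-fold lower, 8.31 to 12.7), and Lamtor3, which holds MEK1 and ERK1 on endosomes, 183 against 1027 (5.55-fold lower, 4.74 to 6.54). Lamtor2, the partner of Lamtor3, named after its value was seen, was 2.06-fold higher (1.95 to 2.19), a call lost with a pseudocount of 5 CPM (log2 ratio 0.99). Ppp1ca, a phosphatase subunit with the highest level in this list, is fractional and was 1.22-fold higher. The median log2 ratio of the list was 0.53.

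Dusp6, the phosphatase that removes the activating phosphates of ERK (Entrez gene 67603, chromosome 10, 99263231 to 99267489), was counted at 372 reads in dsNat10 and 192 in dsGFP. Its level was 7.36 TPM against 3.61, and in FPKM 5.03 against 2.52. It was 1.96-fold higher in dsNat10 (1.64 to 2.34), and its log2 ratio of 0.87 falls short of the size rule. Its relatives Dusp7 and Dusp9 had 0 reads in dsNat10 against 103 and 45 in dsGFP, both under the filter on the mean.

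The other feedback genes did not share 1 direction. Of 10 tested, Dusp6 included, 3 were higher and 2 lower, beside 15.2% and 15.3% of all genes tested, and 7 had a log2 ratio above 0. The sprouty genes, which act between the receptor and RAF, spread across the range: Spry4 had 419 reads against 36 (11.8-fold higher, 8.36 to 17.0), Spry1 had 0 against 369 (at least 122-fold lower), and Spry2, named for its role, had 66.6 TPM against 56.4. Il17rd, a membrane inhibitor of FGF signalling also known as Sef, had 293 reads against 27 (10.96-fold higher, 7.38 to 16.9). Spry4 and Il17rd, at 1.25 and 0.94 CPM in dsGFP, passed the filter only through dsNat10. Dusp16, named after its value was seen, was 2.50-fold higher. Peak1, a pseudokinase scaffold and not a feedback inhibitor proper, was the other lower gene, with 0 reads against 334. Both lower genes, Spry1 and Peak1, passed the filter only through dsGFP. Their calls thus follow by construction and support nothing about the list. Dusp14, the most abundant of the list, was 1.88-fold lower (1.81 to 1.95), short of the rule.

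Genes at the end of the pathway also went both ways, with 3 of 10 tested higher and 4 lower. Over all genes tested these shares were 15.2% and 15.3%. With no filter on the mean 4 genes of the list were higher and 9 lower. Over all 12836 genes this setting called 1681 higher and 3252 lower, so lower calls were the more common in the whole table too. Several genes under the filter, named after their values were seen, were low in dsNat10. Srf had 0 reads against 256, Elk4 (fractional) 0 against 132.77, Elk1 0 against 113, Ier3 0 against 66 and Fos 1 against 63. The ETS factors, classic targets of ERK, differed from each other: Etv5 had 470 reads against 1279 (2.69-fold lower, 2.42 to 3.0), and Etv4 had 283 against 0, at a mean of 4.95 CPM, just under the filter. Both were named for their role. Myc had 344 reads against 1310 (3.77-fold lower, 3.34 to 4.26), and Mknk1, a kinase that ERK activates, 12 against 385 (31.8-fold lower, 18.0 to 62.0). The immediate early genes Jun and Ier2 were 3.45-fold (3.13 to 3.80) and 2.61-fold (2.45 to 2.78) higher, as was Fosl1 with a fractional count, while Junb, named after its value was seen, was 2.63-fold lower, a call lost in FPKM (log2 ratio -0.99) and with a pseudocount of 5 CPM (-0.66). The feedback and output genes named above did not share 1 direction. For example, Dusp6 and Spry2 (both within the size rule), Spry4, Etv4 (under the filter), Jun, Fosl1 and Ier2 had more reads in dsNat10. Fewer were counted for Etv5, Myc, Junb, Spry1 (called by construction) and Fos (under the filter). These genes are a selection, and ERK activity was not tested.

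Of 8 lineage genes of the inner cell mass, 4 have a row, and 1 was higher and 1 lower, beside 15.2% and 15.3% of all genes tested. Nanog, of the epiblast, is fractional and was 156 TPM in dsNat10 against 469 in dsGFP. Gata6, of the primitive endoderm, was 1.34-fold lower (1.25 to 1.43), and Pdgfra of the same lineage 2.95-fold higher (2.45 to 3.56), at the low levels of 4.65 and 1.23 TPM. Klf2, a pluripotency factor, was within the rule at 7.29 against 5.66 TPM. Among other cell surface receptors, 2 of 5 tested were lower and 0 higher, beside 15.3% and 15.2% of all genes tested. The lower genes Erbb2 and Ephb4, both receptor tyrosine kinases, had 0 reads in dsNat10 against 407 and 396. They passed the filter only through dsGFP, at means of 7.05 and 6.86 CPM. Both calls thus follow by construction and support nothing about the list. Erbb3, the partner of Erbb2, was 1.84-fold lower, and the most abundant of the list, Igf2r, which has no kinase and takes up IGF2, was 1.37-fold higher.

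**Figure D4:**
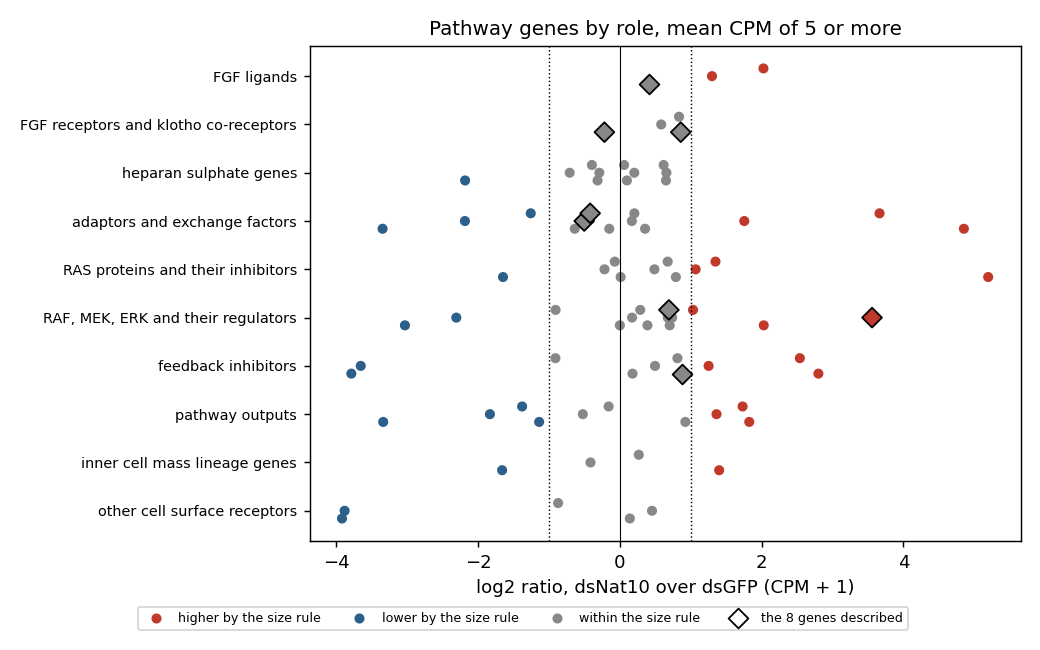
Log2 ratio of CPM plus 1, dsNat10 over dsGFP, of each pathway gene with a mean CPM of 5 or more, grouped by role. Points are genes, coloured by the size rule (dotted lines at -1 and 1), and diamonds are the 8 genes. The adaptors, feedback inhibitors and outputs hold calls on both sides, and the FGF receptors hold none.

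Over all lists, leaving out the 8 genes, 76 genes were tested, of which 17 were higher, 16 lower and 43 within the rule. The share called was 43.4%, beside 30.5% of all genes tested, and the median log2 ratio was 0.19. The share called in the table depends on abundance: it was 63.1% at a mean of 5 to 10 CPM, 47.6% at 10 to 20, 31.6% at 20 to 50 and 6.98% at 100 to 200 CPM. Of the 76 pathway genes, 48 had a mean under 50 CPM, as had 59.4% of all genes tested. Of the 107 pathway genes with a row, dsNat10 had no read for 23 and dsGFP none for 4, and over the whole table these shares were 20.7% and 3.57%.

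Set against genes of like mean CPM, 6 of the 8 genes lay within the middle 50% of log2 ratios, which depends on how genes are matched. The middle 50% of genes ran from -2.18 to 1.34 on the log2 scale at 5 to 10 CPM, which holds Dusp6 (0.87). It ran from -0.94 to 0.93 at 10 to 20 CPM, which holds Fgf4 (0.42) and Fgfr1 (0.86), and from -0.59 to 0.69 at 20 to 50 CPM, which holds Fgfr2 (-0.22), Grb2 (-0.42) and Sos1 (-0.50). Map2k1 (0.69) lay above the middle 50% of its range (-0.38 to 0.30 at 100 to 200 CPM) and below the 95th percentile of 0.82. Other matches took genes with reads in 1 library within 1.25-fold. Matched on dsGFP reads, Fgfr1 and Dusp6 lay above the middle 50%, with upper quartiles of 0.81 and 0.77. Matched on dsNat10 reads, Grb2 and Sos1 lay below it, with lower quartiles of -0.40 and -0.43. Fgf4 and Fgfr2 stayed within it by either match. Mapk3 was not ranked, because its log2 ratio against 0 reads is set by the pseudocount (1.66 to 6.77 over the settings tried).

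**Figure D5:**
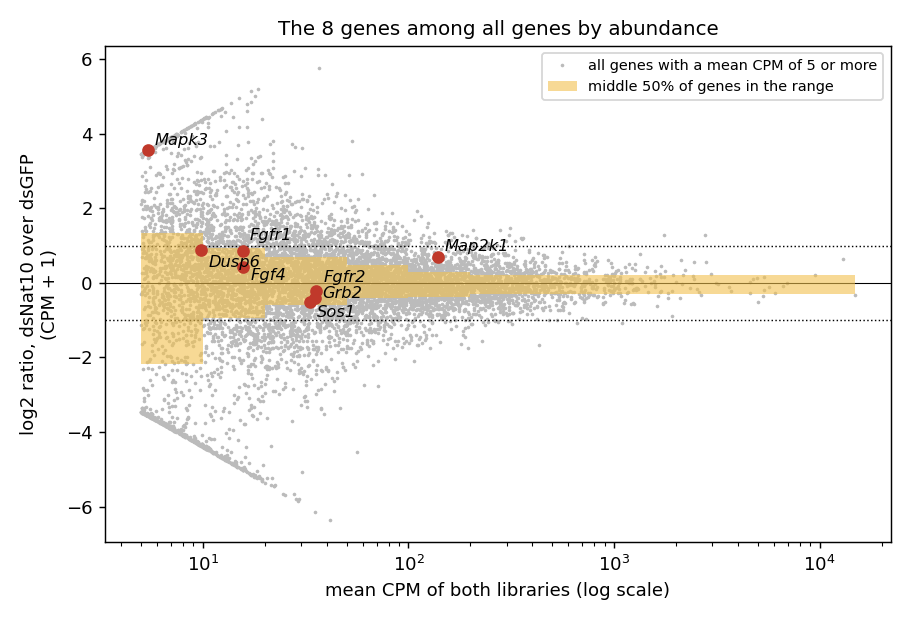
Log2 ratio of CPM plus 1 against the mean CPM of both libraries (log axis) for all 8738 genes tested (grey) and the 8 genes (red). Yellow bands hold the middle 50% of genes in each range of mean CPM, and dotted lines mark the size limit. The spread narrows with abundance, and Map2k1 lies above its band, while the height of Mapk3 is set by the pseudocount.

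In the order of the 8 genes by TPM, Map2k1 was first and Grb2 second in both libraries. In dsNat10, Fgfr2 and Mapk3 (both 10.03 TPM) and Fgf4 (9.42 TPM) followed with overlapping Poisson counting intervals, and Sos1 was last at 4.64 TPM. In dsGFP, Fgf4 (6.64 TPM) and Sos1 (6.37 TPM) had overlapping intervals, as had Dusp6 (3.61 TPM) and Fgfr1 (3.26 TPM), and Mapk3 was last. With 1 library per group no spread between samples can be set against this order.

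The transcript length implied by the deposited values is reads divided by FPKM and by the library total. It re-expresses the same deposited values and is not an independent measure. It was the same within 0.5% in both libraries for Fgf4, Grb2, Sos1 and Dusp6. For Map2k1 it was 2431 bases in dsNat10 and 2288 in dsGFP, 1.06 times longer, for Fgfr1 4844 and 4696 bases, and for Fgfr2 4847 and 4793 bases. A shift of this size changes TPM against CPM ratios by little: Map2k1 was 1.59-fold higher in TPM and 1.62-fold in CPM. Reads of Fgfr1 could be shared with Gm16159 (2.34% of windows of 50 bases) and those of Grb2 with Gm12791 and Gm13542 (8.38% of windows in all), and Fgf4, Fgfr2, Sos1 and Dusp6 shared no window with another gene.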

How the data were processed

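RNA was measured in 1 dsNat10 and 1 dsGFP library. Per the labels' protocols, polyadenylated RNA was made into SMART-seq2 libraries and sequenced with paired ends. Per the submitters' processing notes, Trim Galore, HISAT, HTSeq and GRCm38 were used, with versions not given in the sources used here. In the deposited table are estimated counts, fractional for 23.2% of genes, and the authors' TPM and FPKM values, which correct for length. The sources used here do not say how fractional values arose, and such genes are called uncertain. The kit does not mark strand.

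Estimated counts were rounded, scaled by TMM (edgeR 4.0.16, R 4.3.3) and expressed as CPM, with a pseudocount of 1 for log2 ratios. The size rule was tried on simulated Poisson counts. These hold no variation between pools, so they cannot show how often the rule errs in these libraries. Entrez identifiers matched RefSeq GRCm38.p6 for 12800 of 12836 genes. Promoters are from RefSeq (GRCm38.p6), and windows of 50 bases from GENCODE M21. Differences cannot be tested with 1 library per group. No per-sample column was left unused (0).

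The 8 genes and the pathway and marker lists were chosen with earlier results of these data known. The genes named are the 8 members, their paralogues, Nat10, and from each list up to 4 genes with the largest log2 ratio in size that passed the filter plus the most abundant. Others are named for their role or after their values were seen, as stated. Some genes picked this way are not reported here but stay in the counts of their lists. With 2 libraries no likeness of pattern across samples could be measured. Alternatives were plain totals, DESeq2 1.42.0 size factors, pseudocounts of 0.1 and 5, TPM, FPKM, other filters and leaving out fractional genes.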

Additional observations from a re-analysis of the deposited data

How the results depend on the processing

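No log2 ratio of the 8 genes changed sign or its side of the size limit under plain totals, DESeq2 size factors, pseudocounts of 0.1 and 5 CPM, TPM or FPKM. The TPM and FPKM settings kept a pseudocount of 1. Without it the TPM ratio of Dusp6 was 2.04, just past the ratio of 2 that the limit stands for. Their ranges were 0.34 to 0.45 for Fgf4, 0.68 to 0.91 for Fgfr1, -0.23 to -0.16 for Fgfr2, -0.43 to -0.35 for Grb2, -0.52 to -0.39 for Sos1, 0.63 to 0.72 for Map2k1, 1.66 to 6.77 for Mapk3 and 0.63 to 0.96 for Dusp6. The filter on the mean decides the 1 call: with a mean of 10 CPM or more (chosen after seeing the data) or of 20 CPM or more, 0 of the 8 genes were called, since Mapk3 was then not tested. Of all genes, 2664 were called, 4933 with no filter on the mean and 1026 at 20 CPM or more, and of the pathway genes with the 8 included, 34, 56 and 11. Fewer or more genes are tested under these filters by construction. No paired analysis was possible because each group has 1 library, and no library could be left out. For genes at 0 in 1 library, such as Mapk3, depth allows only a bound.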
